A study of Homo sapiens with 64 samples.

Results

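The comparison described here asked what formoterol still changed after 18 h in cells that were also given budesonide. It set the 4 arrays of cells given both drugs for 18 h (Bud_Form) against the 4 arrays of cells given budesonide without formoterol for 18 h (Bud), which is 8 of the 64 arrays in the series, and the members were taken from the treatment and time in the labels. The cells were BEAS-2B, an immortalised line from human bronchial epithelium, kept without serum overnight before the drugs. Budesonide was used at 100 nM in both groups and formoterol at 10 nM in the first. Also used were cells given formoterol without budesonide (Form) and cells given neither drug (NS), at 6 and 18 h. Bud_Form and Bud cells at 1, 2 and 6 h were used too, with 4 arrays in every group. The main fit took its spread from all 64 arrays of the series. The design text calls the 4 arrays of a group independent determinations, without saying what was independent, and p-values here measure the spread between these arrays, whose number limits the precision.

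Budesonide is a glucocorticoid that enters the cell and binds the glucocorticoid receptor, a nuclear receptor that then raises or lowers the transcription of its target genes. Formoterol is a long-acting agonist of the beta2-adrenoceptor, which couples to Gs and adenylyl cyclase, so that cyclic AMP rises, protein kinase A is activated and the transcription factor CREB is phosphorylated. Both kinds of drug are given together by inhalation in asthma, and the bronchial epithelium is among the cells they reach. The receptor also desensitises during continued exposure, by phosphorylation and internalisation.

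Expression is given as the deposited log2 values, in which a difference of 1 is a 2-fold change, and errors on levels are SD with n = 4. Values ran from 1.16 to 13.9 over all arrays, and the 18 h arrays had medians between 4.884 and 4.947. The difference between the 3′ and 5′ beta-actin control probe sets, a sign of RNA quality, was 0.645 to 1.92 in Bud_Form and 0.631 to 1.96 in Bud arrays, with replicate 1 highest in both groups. Of the epithelial markers, KRT18 averaged 9.95 in Bud_Form cells and KRT8 averaged 7.85. EPCAM averaged 2.53 there, below the lower quartile of all values, 3.021, a level read here only roughly as background. CDH1 averaged 3.89. None of 12 leukocyte, 10 endothelial, 13 fibroblast or smooth muscle and 13 ciliated or secretory cell markers passed the unblocked test of added formoterol. With a block for replicate number within each time, described below, 4 of the 13 fibroblast or smooth muscle markers were called (ACTA2, COL3A1 and PDGFRB higher, TAGLN lower) and none of the others. These 4 are 30.8% of the 13, against 3.67% of all genes called with that block. An array cannot tell fewer cells of a kind from less RNA per cell.

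Formoterol added to budesonide changed few genes at 18 h. Of 18132 genes, 118 passed limma's test at a Benjamini-Hochberg adjusted p under 0.05 (0.651%), 55 higher and 63 lower in Bud_Form cells than in Bud cells, and 11 of them differed at least 2-fold, 9 higher and 2 lower. The median log2 difference of all genes was 0.00478, and the median size among the 118 was 0.538. In 102 of the 118 all 4 arrays of one group lay above all 4 of the other, as they did for 6.26% of all genes. The means of both groups lay below the lower quartile in 4 of the 118. Same-numbered arrays of both groups deviated together. With a block for each replicate number at each time limma called 665 genes (3.67%), 269 higher (1.48%) and 396 lower (2.18%), and all 118 were among them, while 13 differed at least 2-fold. Unblocked values are given below unless a sentence says otherwise.

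**Figure D1:**
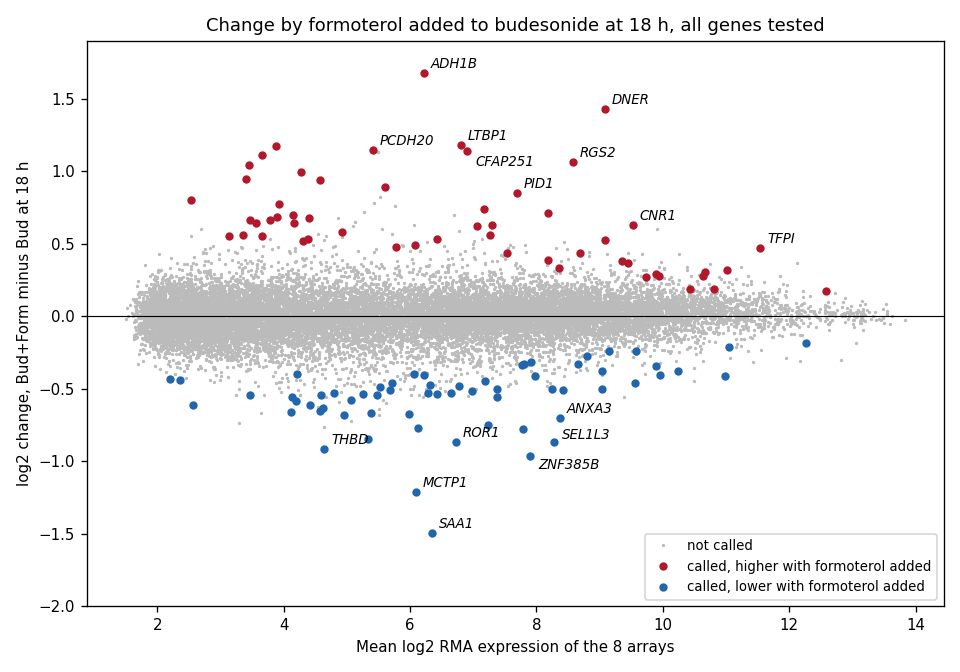
Log2 difference between Bud_Form and Bud cells at 18 h (y axis) against the mean log2 expression of the 8 arrays (x axis), 1 point for each of 18132 genes, with the 55 higher and 63 lower called genes in colour. Most genes lie close to 0, and ADH1B and SAA1 lie farthest from it on the higher and lower side.

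Genes that stood higher with formoterol included several whose level was already far higher in budesonide-treated than in untreated cells. ADH1B encodes the beta subunit of class I alcohol dehydrogenase, which oxidises ethanol and retinol. It measured 6.82, 6.95, 7.55 and 6.93 in Bud_Form arrays, against 5.25, 5.37, 5.40 and 5.52 in Bud arrays. All Bud_Form arrays were above all Bud arrays, and the difference was 1.68 ± 0.13 (SE; 3.19-fold, adjusted p = 2.41e-14). Without budesonide the gene averaged 2.18 ± 0.11 in Form cells and 2.34 ± 0.21 in NS cells, both below the lower quartile. The 5 ADH1B probe sets differed between Bud_Form and Bud by 0.10 to 1.81, all upward.

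LTBP1 encodes a latent TGF-beta binding protein, which holds the inactive growth factor in the extracellular matrix. Its values were 7.33, 7.65, 7.49 and 7.09 in Bud_Form arrays, against 6.14, 6.12, 6.15 and 6.42 in Bud arrays. The groups did not overlap, and the difference was 1.18 ± 0.15 (adjusted p = 5.51e-07). LTBP1 averaged 4.18 in Form cells and 4.27 in NS cells, so that formoterol by itself gave a difference of -0.09 ± 0.15. PID1, a phosphotyrosine-binding adaptor that lowers insulin signalling, measured 8.05, 8.43, 8.09 and 7.92 in Bud_Form arrays, against 7.17, 7.43, 7.0 and 7.47 in Bud arrays. The groups again did not overlap, and the gene stood higher by 0.85 ± 0.14 with both drugs than with budesonide (adjusted p = 7.64e-05). It averaged 5.49 in Form cells and 5.66 in NS cells.

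CNR1, the cannabinoid receptor CB1, measured 9.90, 9.83, 9.96 and 9.67 in Bud_Form arrays, against 9.27, 9.15, 9.30 and 9.13 in Bud arrays. It was higher by 0.63 ± 0.16 (adjusted p = 0.0362), while Form cells averaged 1.94 and NS cells 2.06, below the lower quartile. The CNR1 call was lost in 9 of 19 alternatives, with an adjusted p of up to 0.27. DEPP1, an autophagy regulator that FOXO factors induce, rose by 0.74 ± 0.14 and averaged 7.55 ± 0.11 in Bud_Form cells and 6.81 ± 0.25 in Bud cells (adjusted p = 0.000794). SLC46A3, a lysosomal membrane transporter, rose by 0.71 ± 0.12 and averaged 8.54 ± 0.14 in Bud_Form cells and 7.83 ± 0.17 in Bud cells (adjusted p = 7.49e-05). The plot of single arrays shows both genes lowest without budesonide.

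Cell surface genes were also among the higher ones. DNER, a transmembrane ligand of Notch, measured 9.71, 9.89, 9.89 and 9.74 in Bud_Form arrays, against 8.35, 8.56, 8.43 and 8.17 in Bud arrays. This was the second highest rise, 1.43 ± 0.18 (adjusted p = 5.51e-07), and the groups were far apart. DNER averaged 9.08 in Form cells and 8.49 in NS cells, where the difference of 0.59 ± 0.18 did not pass the test (adjusted p = 0.117). PCDH20, a protocadherin of the cadherin adhesion family, measured 5.65, 6.40, 6.13 and 5.74 in Bud_Form arrays, against 4.88, 5.21, 4.62 and 4.62 in Bud arrays. It rose by 1.15 ± 0.18 (adjusted p = 2.6e-05), and Form and NS cells averaged 2.68 and 2.70, below the lower quartile.

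RGS2 speeds GTP hydrolysis on G alpha q and so shortens signals from receptors that contract airway muscle. It measured 8.87, 9.34, 9.07 and 9.13 in Bud_Form arrays, against 8.08, 8.15, 7.88 and 8.04 in Bud arrays. All arrays with both drugs were higher, by 1.07 ± 0.11 (2.09-fold, adjusted p = 2.02e-10). Form cells measured 7.62, 7.45, 7.48 and 7.58, against 7.23, 7.27, 7.04 and 7.08 in NS cells. Those groups did not overlap either, but their difference of 0.37 ± 0.11 did not pass the test across all genes (adjusted p = 0.0638).

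CFAP251 encodes a protein of the ciliary axoneme. It measured 7.10, 7.67, 7.69 and 7.43 in Bud_Form arrays, against 6.16, 6.45, 6.37 and 6.35 in Bud arrays, and 8.19, 8.27, 8.41 and 8.44 in Form arrays, against 6.93, 7.14, 7.21 and 7.19 in NS arrays. It was higher with formoterol in both settings, by 1.14 ± 0.10 with budesonide (adjusted p = 3.71e-12) and 1.21 ± 0.10 without (adjusted p = 6.71e-13). The difference between these effects was -0.07 ± 0.14 (adjusted p = 0.948). DEPDC7 likewise rose by 0.63 ± 0.12 with budesonide and by 0.74 ± 0.12 without it, although 1 of its 4 probe sets was at -0.08 with budesonide.

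The other genes in the named higher group were SMCO3 (0.94 ± 0.12, and 0.381 as the mean of its 3 probe sets, which ran from 0.02 to 0.94), the histone H2A genes H2AC6 (0.89 ± 0.18) and H2AJ (0.58 ± 0.13), and WIPF1 (0.62 ± 0.14), whose protein binds the actin regulator WASP. H2AJ and WIPF1 lost their calls under some alternatives. For WIPF1 the probe set with the highest interquartile range gave 0.372 with an adjusted p of 0.732, and for H2AJ it gave 0.347 with an adjusted p of 0.559.

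**Figure D2:**
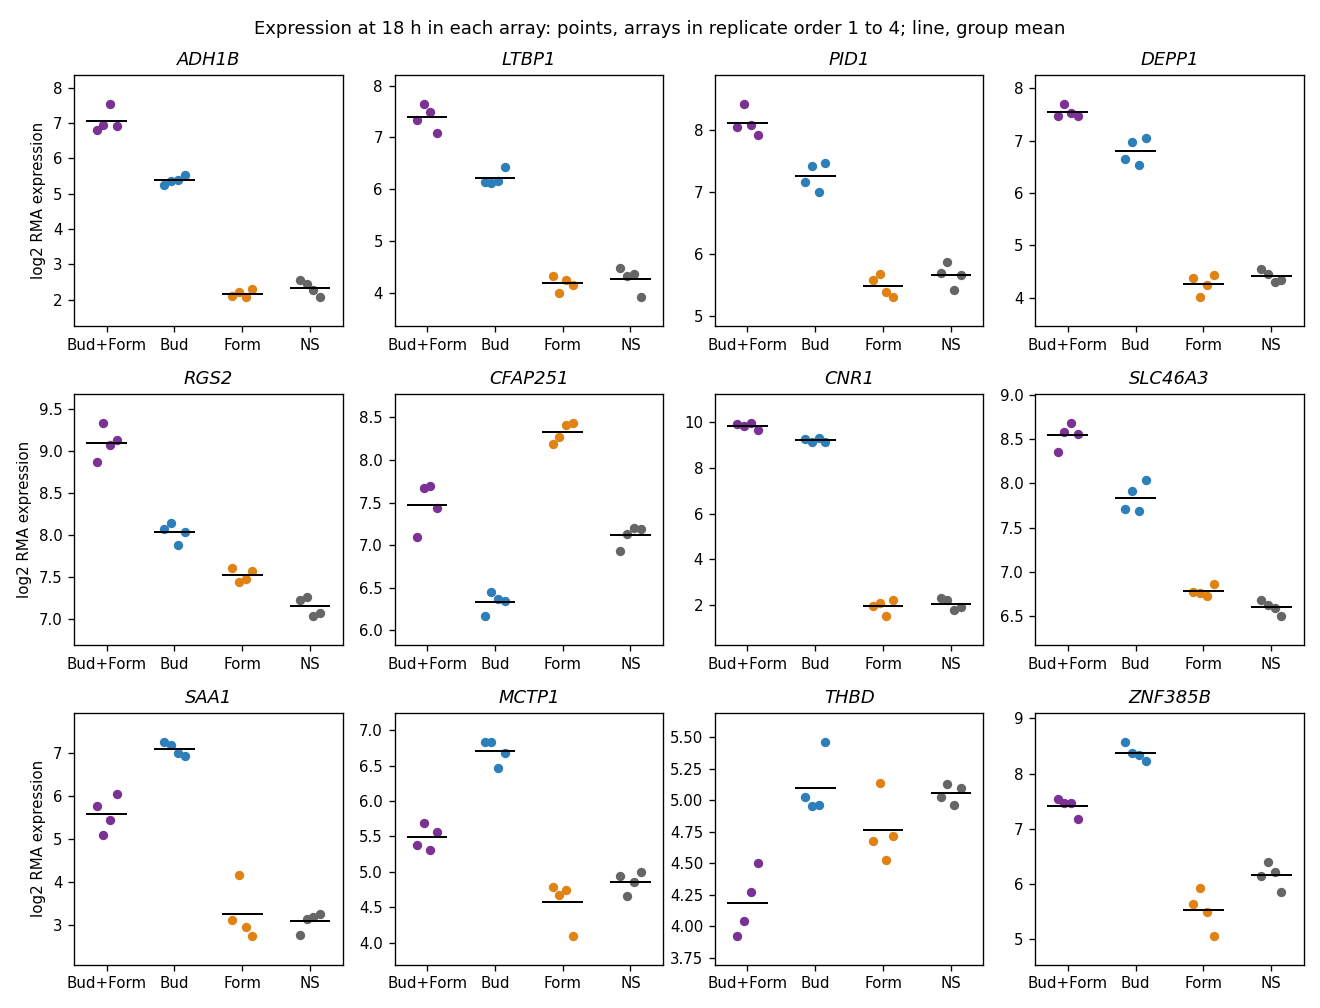
Log2 expression at 18 h of 8 genes that rose (2 upper rows) and 4 that fell (bottom row) when formoterol was added to budesonide. Points are single arrays, 4 per group, lines are group means, and the y axes differ between genes. In each panel the Bud_Form points (left) do not overlap the Bud points beside them, as the rule for naming these genes required.

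The genes that fell had varied functions. SAA1, serum amyloid A, is an acute phase protein secreted by liver and by epithelium in inflammation. It measured 5.78, 5.11, 5.45 and 6.04 in Bud_Form arrays, against 7.25, 7.18, 7.0 and 6.92 in Bud arrays. Every array with both drugs was lower, and SAA1 fell by 1.50 ± 0.20 on the log2 scale (0.354-fold, adjusted p = 6.04e-07). Form arrays measured 3.12, 4.18, 2.95 and 2.76, against 2.77, 3.13, 3.18 and 3.26 in NS arrays. The Form and NS groups overlapped, differed by 0.16 ± 0.20 and averaged 3.25 in Form cells and 3.09 in NS cells, close to the lower quartile.

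MCTP1, a calcium-binding membrane protein with C2 domains, measured 5.38, 5.70, 5.31 and 5.57 in Bud_Form arrays, against 6.83, 6.83, 6.47 and 6.68 in Bud arrays. It fell by 1.22 ± 0.19 (adjusted p = 5.39e-05). ZNF385B, a zinc finger protein, averaged 7.41 ± 0.16 in Bud_Form cells and 8.38 ± 0.14 in Bud cells and fell by 0.96 ± 0.13 (adjusted p = 6.04e-07). It also fell without budesonide, by 0.62 ± 0.13, with averages of 5.53 in Form cells and 6.15 in NS cells (adjusted p = 0.00223). THBD, thrombomodulin, the receptor that turns thrombin towards activation of the anticoagulant protein C, measured 3.93, 4.04, 4.27 and 4.50 in Bud_Form arrays, against 5.02, 4.96, 4.96 and 5.46 in Bud arrays. It fell by 0.91 ± 0.14 (adjusted p = 3.16e-05), and the groups did not overlap.

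Among genes of receptors and signalling, ROR1, a receptor of the Wnt5a pathway, fell by 0.87 ± 0.19 (adjusted p = 0.00817), a call lost when any of 3 single arrays or replicate 1 of every group was left out (adjusted p up to 0.0664). RRAGD, a Rag GTPase that brings mTORC1 to lysosomes, fell by 0.78 ± 0.16, with 7.39 ± 0.16 in Bud_Form cells and 8.17 ± 0.16 in Bud cells (adjusted p = 0.00263). RBP7, a cellular retinol-binding protein, fell by 0.68 ± 0.13 (adjusted p = 0.00074).

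Several others belong to membranes and transport. SEL1L3 fell by 0.87 ± 0.13 with budesonide and by 0.69 ± 0.13 without it. REEP1, which shapes the endoplasmic reticulum, fell by 0.75 ± 0.13, though its probe set with the highest interquartile range gave -0.241 (adjusted p = 0.955). SYBU, which links membrane cargo to kinesin, fell by 0.77 ± 0.14, and ANXA3, a calcium-dependent phospholipid-binding annexin, by 0.70 ± 0.09. LRRC8C, a subunit of volume-regulated anion channels, fell by 0.58 ± 0.10 with budesonide and by 0.43 ± 0.10 without it. SLC22A23, a member of the organic ion transporter family, fell by 0.68 ± 0.12, with 1 of its 4 probe sets at 0.15. ANKRD2 (-0.67 ± 0.14) and SCARA3 (-0.56 ± 0.13) complete the 15 named, and the SCARA3 call was lost on leaving out any of 5 single arrays. The calls of ANKRD2, LRRC8C and SLC22A23 were each lost under 1 of 19 alternatives, as was that of DEPDC7 above.

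Genes induced through cyclic AMP and CREB were counted as a list. Of 20 measured, 2 were higher in Bud_Form than in Bud cells at 18 h, against 0.303% of all genes. None was lower, against 0.347%, and the median difference of the 20 was 0.03, against 0.00478 over all genes. The 2 higher ones were RGS2 and ATF3. ATF3, a stress-induced transcription factor, averaged 6.32 ± 0.09 in Bud_Form cells and 5.83 ± 0.08 in Bud cells. With the block within each time LINC00473 was called too, at 0.48 ± 0.14 (adjusted p = 0.0309). That made 15% of the list called, against 3.67% of all genes. In the same list 7 genes were higher in Form than in NS cells, against 0.469% of all genes, and the median difference was 0.38. In either direction that comparison called 1.11% of all genes, and 0.64% were lower. With formoterol added to budesonide, 10 of the 20 had been higher at 1 h, against 1.2% of all genes. At 2 h 13 had been higher, against 2.83%, and at 6 h 10, against 3.91%.

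The cyclic AMP machinery list holds genes of the proteins that make or carry the cyclic AMP signal. None of its 30 genes passed the unblocked test, which called 0.651% of all genes. With the block within each time 5 of the 30 were called (16.7%, against 3.67% of all genes), 1 higher and 4 lower. ADRB1, the beta1-adrenoceptor, measured 3.91, 3.85, 4.0 and 4.13 in Bud_Form arrays, against 4.49, 4.34, 4.39 and 4.42 in Bud arrays. These arrays did not overlap, and the difference of -0.44 ± 0.13 had an adjusted p of 0.0973 unblocked and 0.0151 with that block. Also called lower with it were ADCY3, AKAP1 and PRKACB, with SIK2 higher. None of 15 cyclic nucleotide phosphodiesterases passed either test. At 6 h 6 had been higher and 1 lower, when 3.91% of all genes were higher and 2.81% were lower. Of 16 regulators of G-protein signalling, RGS2 rose without the block, against 0.303% of all genes, and none fell, against 0.347%. With the block within each time RGS2 was higher, and RGS7 (-0.37 ± 0.11) and RGS10 (-0.19 ± 0.06) were lower. These 3 are 18.8% of the list, against 3.67% of all genes.

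Glucocorticoid-induced genes formed the other list of direct interest. Of 28 measured, CNR1 was higher in Bud_Form than in Bud cells, against 0.303% of all genes, and none was lower, against 0.347%. The median difference of the 28 was 0.06. TSC22D3, which encodes the anti-inflammatory protein GILZ, averaged 11.65 in Bud_Form cells and 11.48 in Bud cells, and FKBP5, a co-chaperone that restrains the receptor, averaged 11.58 in Bud_Form cells and 11.56 in Bud cells. Neither passed the test (adjusted p = 0.781 for TSC22D3 and 0.996 for FKBP5). With the block CEBPD (0.43 ± 0.11) and CNR1 were higher and ERRFI1 (-0.26 ± 0.08) was lower. Called in either direction were thus 10.7% of the list, against 3.67% of all genes. The receptor gene NR3C1 averaged 9.91 ± 0.13 in Bud_Form cells and 9.70 ± 0.08 in Bud cells, a difference of 0.21 ± 0.08 that did not pass (adjusted p = 0.388). At 1, 2 and 6 h, 11, 9 and 6 genes of this list had been higher with formoterol added. Of all genes 1.2%, 2.83% and 3.91% were higher at these times. In the list 1 gene was lower at 2 h, when 1.54% of all genes were lower.

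Lists for inflammation showed no unblocked call. Of 27 cytokines and chemokines none passed, and CCL2, a monocyte chemoattractant, came nearest. It measured 6.99, 6.92, 7.20 and 7.18 in Bud_Form arrays, against 6.51, 6.45, 6.42 and 6.57 in Bud arrays, a difference of 0.59 ± 0.16 (adjusted p = 0.0595, and 0.00316 with the block within each time). In Form arrays CCL2 measured 9.90, 9.96, 9.77 and 9.72, against 8.58, 8.83, 8.58 and 8.85 in NS arrays, and it rose there by 1.13 ± 0.16. None of 16 NF-kappaB genes, 19 interferon-stimulated genes and 16 MAPK feedback genes passed without the block. The interferon-stimulated genes had a median difference of 0.25, the highest of the 24 lists, with members from -0.21 to 0.62 and no adjusted p below 0.697. With the block within each time 1 MAPK feedback gene, ERRFI1, was called (6.25%, against 3.67% of all genes), and again none of the NF-kappaB or interferon genes.

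Of 28 cell division and DNA replication genes none passed without the block. With the block within each time 11 were called (39.3%, against 3.67% of all genes). Higher were 5 of them, BUB1, CCNB1, CCNB2, CDC20 and CENPE, by between 0.16 and 0.24, and lower were CCND1 (-0.56 ± 0.08), CCNE1, CCNE2, PCNA, RRM2 and TYMS. The other 17 were not called, among them the mitotic kinase genes CDK1 (0.02 ± 0.05), AURKB (-0.09 ± 0.05) and TTK (0.07 ± 0.04). Of 32 extracellular matrix genes COL13A1 fell by 0.61 ± 0.14, although 1 Bud_Form array at 4.78 lay within the Bud arrays, which ran from 4.61 to 4.84. Of 23 heat shock, chaperone and ATF4 target genes HSP90B1, a chaperone of the endoplasmic reticulum, rose by 0.17 ± 0.04. None of 18 clock, 26 fasting metabolism, 12 cholesterol, 11 metallothionein, 23 growth factor, 21 ion channel and 16 keratin and junction genes passed without the block.

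With the block, 3 clock genes were lower (BHLHE41, BMAL2 and NPAS2). In the matrix list 4 genes were higher (CCN2, COL3A1, COL5A1 and PLAU) and COL13A1 was lower. Of the fasting genes PDK4 and TXNIP were higher and LPIN1 was lower. Called in either direction were 16.7% of the clock, 15.6% of the matrix and 11.5% of the fasting genes, against 3.67% of all genes. FGF1 and NRG1 (8.7% of the growth factor list) and KRT18 (6.25% of the keratin and junction list) were lower. KCNJ8 (4.76% of the ion channel list) was higher. In the heat shock, chaperone and ATF4 list HSP90B1 was higher, and HSPA1B and PHGDH were lower (13%). No cholesterol or metallothionein gene was called. PDK4, the kinase that shuts off pyruvate dehydrogenase, had a difference of 1.13 ± 0.39 unblocked (adjusted p = 0.249) and 1.13 ± 0.32 blocked (adjusted p = 0.0286). Of the 4 fibroblast and smooth muscle markers called with the block, ACTA2, the actin of smooth muscle, differed by 0.72 ± 0.15 (adjusted p = 0.00206). The summed level of these 13 markers was 10.4 to 10.7 in Bud_Form arrays and 10.1 to 10.5 in Bud arrays, as log2 of the sum of linear levels, 3 of the 13 had both means below the lower quartile, and the part of these markers in the other results was not tested.

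Formoterol without budesonide changed 201 genes at 18 h, 85 higher and 116 lower. Its arrays were not among those of the main comparison, apart from their part in the common spread. The count rested on single arrays, with 93 genes without Form replicate 4, 117 without replicate 2 and 348 without replicate 1, and it was 121 without NS replicate 2. Form replicate 4 had the highest SD of residuals around the group means (0.232) and the lowest interquartile range of levels (4.043) of all 64 arrays. Of the 118 genes called with budesonide, 20 were among these 201, and 19 of the 20 ran the same way. The 20 are 16.9% of the 118, against 1.11% of all genes called without budesonide. They are 9.95% of the 201, against 0.651% of all genes called with it. Without Form replicate 4 the shared genes were 10, which is 8.47% of the 118 and 10.8% of the 93, and without Form replicate 1 they were 22, which is 18.6% of the 118 and 6.32% of the 348. The sign was shared by 77.1% of the 118, against 52.2% of all genes. At 6 h 873 genes differed between Form and NS cells (4.81%), 500 higher (2.76%) and 373 lower (2.06%), and 84 were at least 2-fold higher. At 18 h these 84 had a median difference of 0.11 between Bud_Form and Bud cells, and of 0.38 between Form and NS cells. Between Bud_Form and Bud cells 3 of them were called higher (3.57%, against 0.303% of all genes) and none lower, against 0.347%.

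The test of whether the effect of formoterol differed with and without budesonide at 18 h called 50 genes (0.276%), 28 with a more positive effect under budesonide (0.154%) and 22 with a more negative one (0.121%). Values are the effect with budesonide minus that without it. With the block within each time the test called 339. The most positive differences were in ADH1B (1.84 ± 0.18, adjusted p = 6.28e-10), LTBP1 (1.27 ± 0.22), PCDH20 (1.16 ± 0.25), PTPN13 (1.13 ± 0.21) and NPPB (1.04 ± 0.23). ADH1B and PCDH20 were near background without budesonide, where a change by formoterol could have gone unmeasured. The PCDH20 and NPPB calls were lost in 2 and 7 of 27 alternatives.

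PTPN13, a large protein tyrosine phosphatase, and NPPB, the precursor of B-type natriuretic peptide, behaved otherwise. PTPN13 fell by 0.57 ± 0.15 without budesonide (adjusted p = 0.0404). It measured 5.59, 5.24, 5.17 and 4.61 in Form arrays, against 5.73, 5.88, 5.70 and 5.57 in NS arrays. The lowest value, 4.61, was that of Form replicate 4, the array with the widest residuals. With budesonide PTPN13 measured 6.03, 6.17, 5.99 and 5.80 in Bud_Form arrays, against 5.58, 5.46, 5.32 and 5.36 in Bud arrays. That difference was 0.57 ± 0.15 (adjusted p = 0.0572, and 0.000482 with the block within each time). NPPB fell by 0.73 ± 0.16 without budesonide, to 6.91 in Form cells against 7.63 in NS cells, and averaged 4.74 in Bud_Form cells and 4.43 in Bud cells.

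The most negative differences lay in genes that formoterol raised without budesonide, apart from SAA1 (-1.66 ± 0.28). LINC00473, a long noncoding RNA induced by CREB, measured 4.18, 3.73, 4.14 and 4.56 in Bud_Form arrays, against 3.53, 3.91, 3.57 and 3.69 in Bud arrays. Those groups overlapped. It measured 6.31, 6.35, 6.43 and 7.01 in Form arrays, against 4.27, 4.16, 4.30 and 4.77 in NS arrays. It rose with formoterol by 2.15 ± 0.20 without budesonide, and the effect differed by -1.67 ± 0.28 (adjusted p = 0.000402). Only 1 of its 2 probe sets gave a positive difference between Bud_Form and Bud at 18 h. At 6 h LINC00473 had been higher in Bud_Form than in Bud cells, by 2.45 ± 0.20.

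IL11, a cytokine of the IL6 family that acts on fibroblasts, measured 3.41, 3.85, 3.38 and 3.38 in Bud_Form arrays, against 3.31, 3.71, 3.66 and 3.88 in Bud arrays. In Form arrays it measured 6.76, 6.10, 7.07 and 7.27, against 5.44, 5.46, 5.12 and 5.65 in NS arrays. It rose with formoterol without budesonide, by 1.38 ± 0.20, and the effect differed by -1.52 ± 0.29 with budesonide (adjusted p = 0.00196). SMOC1, a matricellular calcium-binding protein, rose by 1.62 ± 0.16 without budesonide and differed by 0.18 ± 0.16 with it. PDE7B, a phosphodiesterase that hydrolyses cyclic AMP, rose by 1.82 ± 0.17 without budesonide and differed by 0.40 ± 0.17 with it (adjusted p = 0.459). The effects on SMOC1 and PDE7B differed by -1.44 ± 0.23 and -1.42 ± 0.23. These differences hold for 18 h. At 6 h SMOC1 and PDE7B had been higher in Bud_Form than in Bud cells, by 1.51 ± 0.16 and 2.17 ± 0.17. IL11 had been higher by 2.46 ± 0.20 at 1 h and was not called at 6 h (-0.43 ± 0.20). With the SMOC1 probe set of highest interquartile range the difference between its effects at 18 h was -0.979 (adjusted p = 0.0757).

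**Figure D3:**
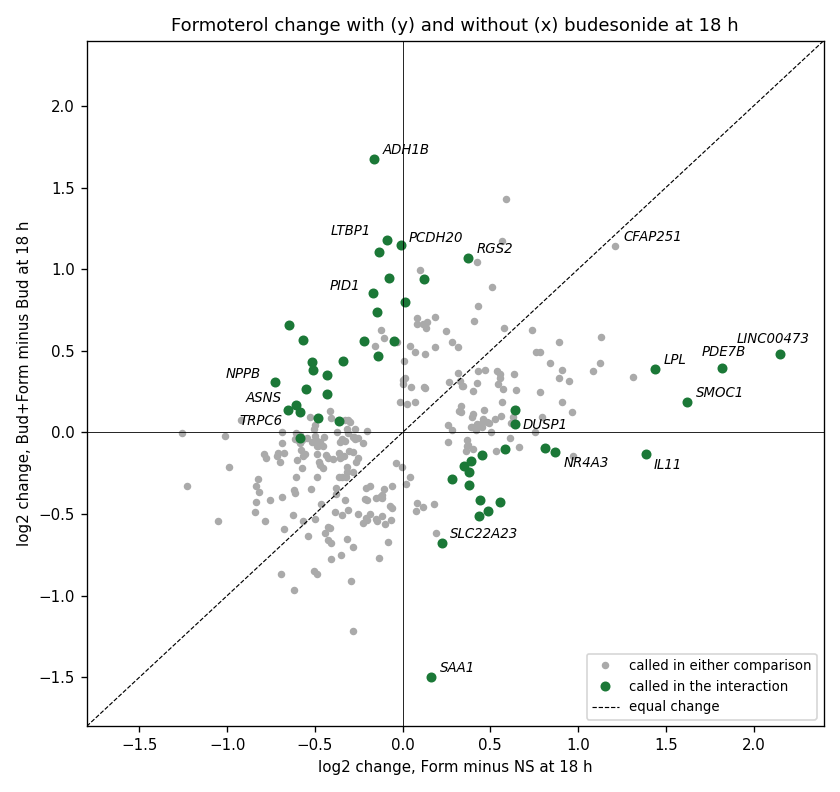
Log2 difference between Bud_Form and Bud cells (y axis) against that between Form and NS cells (x axis) at 18 h, for genes called in either comparison or in the test of the difference between them (50 genes, larger points). ADH1B, LTBP1 and PCDH20 lie high near 0 on the x axis, LINC00473, PDE7B, SMOC1 and IL11 lie far right and low, and CFAP251 lies close to the line of equal change.

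Promoter letters are given for genes on both sides of this difference, to show which carry the palindrome TGACGTCA that CREB binds. RefSeq (GRCh38.p14) gave 250 bases before the start for 14425 of the 18132 genes, and the capitals mark TGACG on either strand, which the palindrome holds on both. LTBP1, which formoterol raised in the presence of budesonide, has its window at chr2:32946703-32946952 on the plus strand, with the palindrome 94 bases before the start. PDE7B was raised by formoterol without budesonide at 18 h, and at 6 h also with it. Its window is at chr6:135851451-135851700 on the plus strand, with the palindrome 155 bases before the start. LINC00473 and SMOC1, which formoterol also raised without budesonide at 18 h, hold only the shorter TGACG in their windows, which are not shown. RGS2, with its window at chr1:192808789-192809038 on the plus strand, holds only the shorter TGACG, 181 bases before the start. ADH1B, with its window at chr4:99321402-99321651 on the minus strand, holds neither in this window.
LTBP1: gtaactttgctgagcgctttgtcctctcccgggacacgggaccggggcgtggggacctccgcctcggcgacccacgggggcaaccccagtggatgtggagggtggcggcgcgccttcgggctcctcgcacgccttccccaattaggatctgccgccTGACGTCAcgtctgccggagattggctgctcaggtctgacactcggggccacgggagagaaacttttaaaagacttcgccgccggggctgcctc
PDE7B: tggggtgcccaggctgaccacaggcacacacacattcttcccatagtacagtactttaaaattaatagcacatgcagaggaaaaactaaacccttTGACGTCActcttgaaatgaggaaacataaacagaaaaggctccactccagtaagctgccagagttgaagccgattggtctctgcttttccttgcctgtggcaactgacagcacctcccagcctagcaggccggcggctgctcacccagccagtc
RGS2: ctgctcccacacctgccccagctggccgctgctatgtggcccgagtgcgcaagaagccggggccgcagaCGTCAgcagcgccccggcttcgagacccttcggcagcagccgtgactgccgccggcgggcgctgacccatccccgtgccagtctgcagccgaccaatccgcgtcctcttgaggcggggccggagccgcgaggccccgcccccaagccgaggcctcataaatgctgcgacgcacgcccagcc
ADH1B: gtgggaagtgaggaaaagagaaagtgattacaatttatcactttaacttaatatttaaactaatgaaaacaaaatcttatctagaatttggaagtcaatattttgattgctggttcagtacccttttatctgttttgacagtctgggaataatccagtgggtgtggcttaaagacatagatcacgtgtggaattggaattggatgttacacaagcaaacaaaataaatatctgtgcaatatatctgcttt

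Over all genes with a promoter the palindrome was found in 2.38%. It was found in 2 of 46 genes called higher in Bud_Form than in Bud cells (4.35%), in none of 43 called lower, and in 4 of 69 called higher in Form than in NS cells (5.8%). TGACG on either strand was found in 25.8% of all genes, 19.6% of those higher and 18.6% of those lower with formoterol added. The palindromic glucocorticoid response element was found in none of the 14425 windows, and AAAGGTCA, the motif of NR4A receptors, in 0.853% of all and 1 of the 46 higher genes. These are letter matches in a short window and show no binding. The glucocorticoid element was searched only as an exact palindrome, which is longer than the other motifs. Such a match is hardly to be met in windows this short. Its absence from every gene set therefore could not compare them, and nothing is concluded from it.

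The other gene of the 46 with the palindrome was CGA, the alpha subunit shared by the glycoprotein hormones, which the naming rule did not give and which was chosen after its values were seen. Its promoter window, at chr6:87095107-87095356 on the minus strand, holds the palindrome at 2 places, and is shown because it is a textbook cyclic AMP responsive promoter.
CGA: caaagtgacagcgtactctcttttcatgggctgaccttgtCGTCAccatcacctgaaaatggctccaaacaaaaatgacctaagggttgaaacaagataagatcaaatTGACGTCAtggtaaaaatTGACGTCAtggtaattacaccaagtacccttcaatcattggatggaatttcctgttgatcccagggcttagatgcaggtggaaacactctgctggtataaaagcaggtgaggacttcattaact
CGA measured 4.50, 4.74, 4.46 and 4.17 in Bud_Form arrays, against 3.37, 3.31, 3.16 and 3.33 in Bud arrays. It was higher by 1.17 ± 0.18 (adjusted p = 1.4e-05), without overlap. In Form arrays it measured 4.08, 4.17, 3.82 and 3.48, against 3.64, 3.33, 2.97 and 3.34 in NS arrays, a difference of 0.57 ± 0.18 that did not pass (adjusted p = 0.11).

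Added formoterol had called more genes earlier, 267 at 1 h (1.47%), 794 at 2 h (4.38%) and 1218 at 6 h (6.72%). Of the 18 h calls, 47 were also called at 6 h. In 40 of them the direction was the same, 26 higher and 14 lower, and in the rest it was opposite. The 40 are 33.9% of the 118 and 3.28% of the 1218. The sign was shared by 69.5% of the 118, against 54.4% of all genes, and the arrays of both times were separate. Of 93 genes at least 2-fold higher with formoterol added at 6 h, 12 were called higher at 18 h (12.9%, against 0.303% of all genes). Within 2-fold at 18 h lay 84 of the 93. Their median difference was 0.19 at 18 h and 1.33 at 6 h, the time that chose them. Of 17 at least 2-fold lower at 6 h, 1 was called higher and 1 lower at 18 h (5.88% each, against 0.303% and 0.347% of all genes).

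The courses of single genes differed. RGS2 was higher by 3.53, 3.35, 2.38 and 1.07 at 1, 2, 6 and 18 h. ADH1B was first called at 6 h, at 1.32 ± 0.13, a lower bound since its Bud mean of 2.52 was below the lower quartile, and LTBP1 stood at 2.42 ± 0.15 at 6 h and 1.18 ± 0.15 at 18 h. DNER and PCDH20 were at 1.47 and 1.46 at 6 h, close to their 18 h values. SLC46A3 and THBD were not called at 6 h, with differences of -0.16 and 0.14, and THBD had been higher by 0.60 at 2 h before it fell at 18 h. SAA1 differed by -0.48 ± 0.20 at 6 h, which did not pass the test (adjusted p = 0.164).

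The difference between the 18 h and the 6 h effect was tested for every gene, and 481 passed (2.65%), 184 with a more positive effect at 18 h (1.01%) and 297 with a more negative one (1.64%). With the block within each time 1404 passed. NPTX1, a neuronal pentraxin, gave the most negative value. At 6 h it averaged 8.26 ± 0.24 in Bud_Form cells and 4.06 ± 0.25 in Bud cells, and at 18 h 4.22 ± 0.30 in Bud_Form cells and 3.86 ± 0.12 in Bud cells. Its effects of 4.20 ± 0.23 at 6 h and 0.36 ± 0.23 at 18 h differed by -3.84 ± 0.33, and the 18 h arrays overlapped.

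The next most negative values were in SLC16A14, a monocarboxylate transporter family member (-2.59 ± 0.27), CD24, a glycosylphosphatidylinositol-anchored surface sialoglycoprotein (-2.26 ± 0.30), SLC7A2, a cationic amino acid transporter (-2.20 ± 0.21), and SLC27A2, a long-chain fatty acid transporter and acyl-CoA synthetase (-2.04 ± 0.19). These 4 genes were higher with formoterol added at 6 h by 1.77 to 2.22, and none was called at 18 h, where they lay between -0.50 and 0.03. The probe sets of NPTX1 and SLC7A2 did not all share 1 sign at 18 h.

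The most positive values belonged to genes that formoterol had lowered at 6 h. NAV3, a microtubule-associated protein, differed by -2.16 ± 0.20 at 6 h and -0.20 ± 0.20 at 18 h. OXTR, the oxytocin receptor, differed by -1.52 ± 0.16 at 6 h and -0.16 ± 0.16 at 18 h, and EGR1, an immediate early transcription factor, by -1.34 ± 0.19 at 6 h and 0.11 ± 0.19 at 18 h. FILIP1L differed by -1.15 ± 0.09 at 6 h and 0.21 ± 0.09 at 18 h. B3GALT2, a galactosyltransferase, measured 7.07, 7.07, 7.10 and 6.93 in Bud_Form arrays at 18 h, against 6.21, 6.26, 6.56 and 6.36 in Bud arrays. Its effects of -1.18 ± 0.19 at 6 h and 0.70 ± 0.19 at 18 h lay on opposite sides of 0. The 18 h one had an adjusted p of 0.0575, and of 0.000661 with the block within each time.

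**Figure D4:**
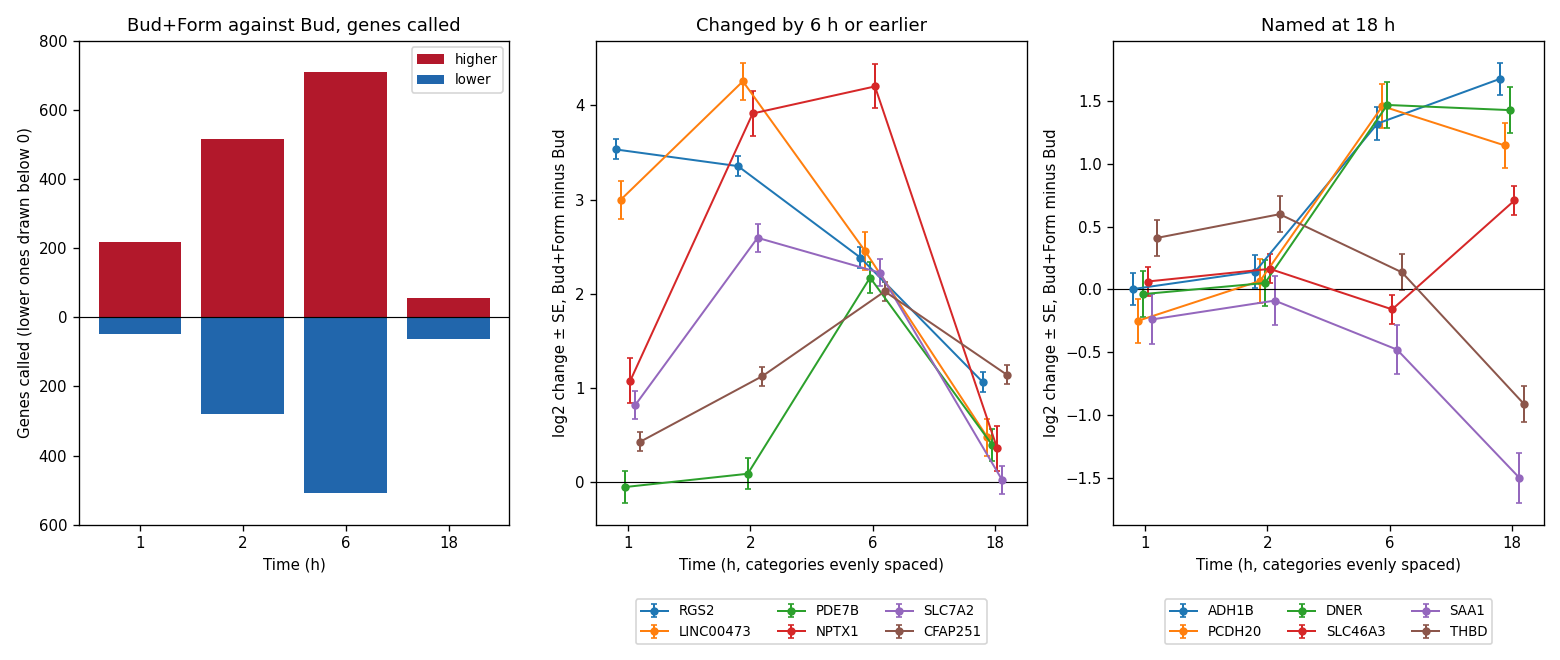
Left, number of genes called higher (above 0) and lower (below 0) in Bud_Form than in Bud cells at 1, 2, 6 and 18 h. Middle and right, log2 difference ± SE between Bud_Form and Bud cells of 12 genes over time, n = 4 arrays per group. Both counts were highest at 6 h, the higher count was lowest at 18 h (55 genes) and the lower count at 1 h (50 genes), the middle genes peaked by 6 h, and those on the right changed at 6 or 18 h, apart from THBD, which was higher at 2 h.

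Genes chosen for their response to budesonide at 6 h gave a further view. Those arrays were not among the ones compared at 18 h, apart from their part in the common spread. At 6 h budesonide without formoterol changed 14.2% of all genes, with 6.12% higher and 8.12% lower than in NS cells. Of 201 genes at least 2-fold higher in Bud than in NS cells at 6 h, 5 were higher in Bud_Form than in Bud cells at 18 h and 9 were lower, with a median difference of -0.04. Of 197 at least 2-fold lower with budesonide at 6 h, none was higher and 1 was lower, with a median of -0.02. The first set thus had 2.49% of its genes called higher and 4.48% lower, against 0.303% and 0.347% of all genes.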

How the data were processed

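Each of the 64 RNA samples was run on its own Affymetrix array. The authors deposited log2 values made with RMA (per the submitters' processing notes), which corrects background, normalizes arrays and summarises the probes of a probe set. Neither its version nor whether all arrays formed 1 normalization set is given in the sources used here, and shifts common to most genes are removed within such a set. Of 49395 probe sets, 44994 had 1 gene symbol in the platform annotation, and the one with the highest mean over all arrays stood for each of 18132 genes. One limma model (limma 3.58.1, R 4.3.3) held 16 group means, with 48 residual degrees of freedom and an intensity trend. In simulated arrays it recovered 68.7% of added log2 changes of 0.5 and 100% of those of 1 and 2, and 3.24% of its calls were false. The simulated arrays varied independently, so they lacked the shared deviation of same-numbered arrays described below. Calls were two-sided, with Benjamini-Hochberg adjustment over all genes of a contrast and a threshold of 0.05.

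Named were the 15 highest and 15 lowest called genes without overlap of arrays and with the higher mean reaching 4.903, the median over all values, the 5 highest and lowest of the 2 tests of differences, and members of 24 gene lists. Members and lists were chosen with earlier results of these data known. Same-numbered arrays of Bud_Form and Bud cells at 18 h deviated together (correlations 0.334, 0.186, 0.218 and 0.261), as at 6 h (0.232 to 0.323), so the numbers pair these arrays, though the labels do not say what a number shares. For Form and NS arrays at 18 h the correlations were 0.135, 0.238 and 0.207 for replicates 1 to 3, and -0.113 for replicate 4. Figures were drawn with matplotlib 3.10.9. No array pair was identical (highest correlation 0.9969).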

Additional observations from a re-analysis of the deposited data

Results flagged for a closer look

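Among 132 groups of 4 arrays checked for the named genes, 7 held 1 array well apart from the other 3, where chance gives about 1 in 20. REEP1 had 7.21 in Bud_Form replicate 4 at 18 h, against 6.70 to 6.76 in the others, IL11 had 3.85 in Bud_Form replicate 2 and B3GALT2 had 6.93 in Bud_Form replicate 4. LTBP1 and THBD had 6.42 and 5.46 in Bud replicate 4 at 18 h, LINC00473 had 7.01 in Form replicate 4, and FILIP1L had 10.3 in Bud replicate 1 at 6 h.

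The formoterol effect at 18 h differed with budesonide from that without it, by limma's test of the difference, in 15 named genes. It was more positive with budesonide for ADH1B (1.84), LTBP1 (1.27), PCDH20 (1.16), PTPN13 (1.13), NPPB (1.04), PID1 (1.02), DEPP1 (0.888), SMCO3 (0.816) and RGS2 (0.691). It was more negative for LINC00473 (-1.67), SAA1 (-1.66), IL11 (-1.52), SMOC1 (-1.44), PDE7B (-1.42) and SLC22A23 (-0.902). The test called 0.276% of all genes. The 5 most positive and the 5 most negative of these genes met a naming rule that required passing it, so the count is no separate result.

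The effect of formoterol added to budesonide differed between 18 and 6 h in 24 named genes by the same kind of test. It was more positive at 18 h for NAV3 (1.96), B3GALT2 (1.87), EGR1 (1.45), OXTR (1.37), FILIP1L (1.36), H2AC6 (1.12) and SLC46A3 (0.867). Among the genes named for 18 h it was more negative for PID1 (-1.73), RGS2 (-1.32), LTBP1 (-1.24), THBD (-1.05), SAA1 (-1.02), CFAP251 (-0.886), SLC22A23 (-0.857), RBP7 (-0.646) and SEL1L3 (-0.618). It was also more negative for NPTX1 (-3.84), SLC16A14 (-2.59), CD24 (-2.26), SLC7A2 (-2.20), SLC27A2 (-2.04), LINC00473 (-1.97), PDE7B (-1.78) and SMOC1 (-1.32). This test called 2.65% of all genes. Here too the 5 most positive and the 5 most negative genes were named because they passed it.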

How the results depend on the processing

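The count of genes called for Bud_Form against Bud at 18 h was 118 and stayed within 1.5 times of this when arrays were centred or quantile normalized again, dim genes were left out, probe sets were averaged or the trend was dropped. It became 359 with the replicate number as a block, 665 with the replicate block within each time, 184 when fitted on the compared arrays alone and 57 without replicate 1 in every group, and 76 to 115 when single arrays were left out, with 76 and 77 without replicates 2 and 4 of Bud. For Form against NS, 201 became 527 and 965 with the replicate blocks, 77 with the compared arrays alone, 106 with the probe set of highest interquartile range, and 93 to 348 without single arrays (93, 117 and 348 without Form replicates 4, 2 and 1, and 121 without NS replicate 2). The 50 genes whose formoterol effect differed with budesonide became 167 and 339 with the replicate blocks, 22 without replicate 1 in every group and 35 to 79 without single arrays, 79 without Form replicate 1. At 6 h, 1218 became 1886 and 2587 with the replicate blocks, 671 with the probe set of highest interquartile range and 971 to 1116 without single arrays. The 481 genes that differed between 18 and 6 h became 884 and 1404 with the replicate blocks, 241 with the probe set of highest interquartile range, 250 without replicate 1 in every group and 394 to 470 without single arrays. Same-numbered Form and NS arrays at 18 h deviated together in replicates 1 to 3 but not in replicate 4 (-0.113). Blocked counts that use these arrays rest on a pairing that did not hold for replicate 4. The cause of these shifts was not tested. Of 1100 values of named genes under alternatives, 1058 kept their direction and call, 42 kept the direction and lost the call, and 0 reversed.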

Other observations

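Other genes called at 18 h lay outside the naming rule and were chosen after their values were seen. TFPI, the tissue factor pathway inhibitor, measured 11.83, 11.74, 11.75 and 11.80 in Bud_Form arrays, against 11.32, 11.25, 11.35 and 11.31 in Bud arrays. It rose by 0.47 ± 0.06 with very little spread (adjusted p = 3.28e-07), and Form and NS cells averaged 11.56 and 11.70. CSTA, the cysteine protease inhibitor cystatin A of epithelium, averaged 3.98 ± 0.25 in Bud_Form cells and 2.94 ± 0.36 in Bud cells, the second below the lower quartile, so that its rise of 1.04 is measured against a level near background. IL1RL1, the receptor of the alarmin IL33, rose by 0.68 ± 0.17 (adjusted p = 0.0379) and averaged 4.23 in Bud_Form cells and 3.54 in Bud cells. ENPP1, which makes pyrophosphate from extracellular ATP, rose by 0.56 ± 0.12 with budesonide and did not pass the test without it (-0.22 ± 0.12).

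KIF20A, DLGAP5 and TK1 were picked in the same way. Of the 28 listed cell division and DNA replication genes none passed the same unblocked test, and their median difference was -0.04. KIF20A, a kinesin of cytokinesis, averaged 10.82 ± 0.05 in Bud_Form cells and 10.51 ± 0.09 in Bud cells at 18 h, while at 6 h added formoterol had lowered it by 0.41 ± 0.07. DLGAP5, a spindle protein, rose by 0.29 ± 0.07 at 18 h and had differed by -0.40 ± 0.07 at 6 h. For KIF20A and DLGAP5 the effects at 18 and 6 h differed by 0.72 ± 0.10 and 0.69 ± 0.10 (adjusted p = 4.48e-07 and 4.39e-06 by limma's test of the difference). TK1, thymidine kinase of the DNA synthesis phase, fell by 0.19 ± 0.05 at 18 h. Whether the cells differed in number or in cycle phase was not measured.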
